A study of Sus scrofa with 9 samples.

Results

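The genes described here are 9 transcription regulators that stand upstream of contractile gene expression: SRF, its cofactor MYOCD, the ETS proteins ELK1 and ELK3, the MEF2 factors MEF2A, MEF2C and MEF2D, and the Krüppel-like factors KLF4 and KLF5. They were taken by symbol, and all 9 had a row among the 19535 genes in the deposited table. All 9 also had enough counts for testing, as did 13662 genes in total. The cells were porcine valvular interstitial cells (PVICs), the resident fibroblast-like cells of the aortic valve, from wild type pigs aged 4 to 5 months. Control cells stayed in DMEM without treatment, a second group was kept for 3 days in an osteogenic medium (OIM), and the bFGF group received OIM to which 50 ng/mL bFGF, a growth factor, had been added. Each group had 3 libraries. OIM contained insulin, ascorbic acid at 50 µg/mL and phosphate at 2 mmol/L, so both treated groups share these agents. The sources do not say whether the libraries of a group came from separate animals or cultures, so the p-values measure the spread between libraries, which may be technical.

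SRF binds DNA at the CArG box, in which a run of A and T bases lies between a CC and a GG. It has weak activity of its own and works through cofactors. Myocardin (MYOCD) and the related MRTF proteins drive muscle and cytoskeletal genes, and the MRTFs enter the nucleus when actin monomers are drawn into filaments. ELK1, ELK3 and ELK4 are ternary complex factors. They are phosphorylated by ERK, the kinase that FGF receptors activate, drive immediate early genes with SRF, and compete with the myocardin family for the same surface of SRF. MEF2 proteins share the MADS box with SRF and are held back by class IIa histone deacetylases. KLF4 is known to repress contractile genes in vascular smooth muscle, where KLF5 is linked to the proliferative state.

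SRF is known to control its own gene, so the sequence around the start of each of the 9 genes was searched for CArG boxes. The window ran from 250 bases before to 50 bases after the outermost annotated start in RefSeq (Sscrofa11.1), and both strands were covered because the motif reads the same on each. SRF was the only one of the 9 genes with a match, and it had 2, with 10 bases between them. A match was present in 302 of 19528 windows of protein-coding genes (1.55%). The sites are shown because the same motif was searched for in the target genes compared further on. Capitals mark the CArG box, each sequence runs 5′ to 3′ on the strand of the gene, and the 2 SRF sequences lie at chr7:38213262-38213291 and chr7:38213282-38213311 on the plus strand.
SRF, upstream box: caggggctcaCCATATAAGGagcggcctcg
SRF, box at the start: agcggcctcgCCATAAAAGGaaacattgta
The second box begins 8 bases before the annotated start and runs across it. The MEF2 motif was found in none of the 9 windows, against 2.87% of all windows, and it was searched for on both strands. A match is a description of these letters and not evidence of binding.

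Total counts on genes ranged from 57.1 to 64.7 M (10 to the power of 6) in the control libraries, from 57.7 to 67.4 M in OIM and from 46.8 to 48.3 M in bFGF. The TMM factors, which correct for RNA composition, were 1.10 to 1.11 in bFGF and 0.937 to 0.967 in the other libraries. Levels are given as CPM, the counts of a gene per M counts of the TMM-scaled library total. With library totals alone the median of all genes tested shifted by 0.22 on the log2 scale in bFGF against OIM and by the same amount against control, and the share of called genes that were higher in bFGF went from 49.0% to 68.8% and from 48.5% to 68.1%. Several differences of the 9 regulators in bFGF are smaller than this shift. Those of them that were negative turned positive with library totals alone, as stated beside them. Replicate 2 of OIM differed most from the other libraries of its group (mean chi-square per gene of 19.0 and 19.1, against 4.69 to 11.6 for the other pairs), and values without it are given for MEF2C, where it decides the adjusted p. The interstitial cell markers VIM, DCN, LUM, COL1A1, COL3A1, POSTN and PDGFRA were all detected, with a summed level of 44203 to 50699 CPM in control and OIM and 29516 to 29862 CPM in bFGF. The markers went both ways in bFGF against OIM, where COL1A1, COL3A1 and DCN were called lower and VIM and POSTN higher, and COL1A1 alone was at 9886 CPM in bFGF against 25047 CPM in OIM. Of 6 cardiomyocyte markers in the table, TNNT2 and NPPA had 0 counts in every library, and MYH7, ACTN2, TNNI3 and RYR2 were detected. Most of their summed level came from RYR2, which was called higher in OIM than in control (10.1 against 5.76 CPM) and lower in bFGF than in OIM (3.95 CPM), and TNNI3 was called higher in bFGF than in OIM (2.86 against 1.94 CPM).

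The 9 regulators covered a wide range of levels, and the order was nearly the same in every group. Per kilobase of annotated exon, the control libraries held 45.4 ± 1.58 CPM of MEF2A (SD, n = 3). ELK3 (24.6 ± 0.792) and KLF4 (23.3 ± 1.05) followed in CPM per kilobase, and their ranges overlapped. MEF2D (14.5 ± 0.0213), SRF (12.0 ± 0.614) and ELK1 (8.0 ± 0.455) came next on this scale, without overlap between neighbours. The 3 lowest were MEF2C (1.22 ± 0.00917), KLF5 (1.09 ± 0.134) and MYOCD (0.524 ± 0.188), of which MEF2C and KLF5 overlapped. In bFGF, ELK3 reached 32.1 ± 1.5 CPM per kilobase and no longer overlapped with KLF4 at 23.1 ± 1.02, and KLF5 (1.52 ± 0.130) lay above MEF2C (1.28 ± 0.0609). The gene models of MYOCD (2799 bases) and KLF5 (1374 bases) hold coding sequence only, and whether the authors counted on the same models is not given, so their levels per kilobase are less certain. MYOCD was thus at a trace level, with 59 to 159 counts in each library.

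Between OIM and control, all 9 regulators had a higher mean in OIM, with a median log2 fold change of 0.19 against -0.0019 over all genes tested. The median absolute log2 fold change was 0.19 over the 9 genes and 0.11 over all genes tested. None was called. Genes were called in edgeR's quasi-likelihood test when the adjusted p was 0.05 or less and the log2 fold change was 0.5 or more in size, which held for 2.35% of all genes tested (1.49% higher and 0.864% lower in OIM). At an unadjusted p of 0.05 or less, 6 of the 9 were higher, against 14.2% of all genes, and 2 of these, MYOCD and KLF5, also passed the fold limit, against 2.34% of all genes. DESeq2 called 1 member, KLF5. Without a fold limit SRF, MEF2C and MEF2D passed, 3 of 9, where 7.69% of all genes tested were higher and 5.87% lower on this rule, 13.6% in all. In 5 of the 9 the OIM libraries were all above the controls, against 14.5% of all genes (28.8% did not overlap in either direction, 14.2% with OIM below).

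Between bFGF and OIM, 1 of the 9 regulators was called, against 36.2% of all genes tested (17.7% higher and 18.4% lower in bFGF). It was MYOCD, which was lower in bFGF, and its call was lost in several alternative fits. Without a fold limit, ELK1, ELK3 and MEF2A were higher and SRF, MYOCD, MEF2C and MEF2D were lower in bFGF, 7 of 9 against 67.4% of all genes (33.8% higher and 33.5% lower). With library totals alone and no fold limit, a setting added after the data were seen, the higher ones were ELK1, ELK3, MEF2A and KLF4 and 0 were lower, against 49.0% and 21.7% of all genes. The libraries of the groups did not overlap in 5 of the 9, against 72.1% of all genes (36.3% with bFGF above and 35.8% with bFGF below). The median absolute log2 fold change was 0.28 over the 9 genes and 0.39 over all genes tested. In bFGF against control none of the 9 was called by edgeR or by DESeq2, against 39.0% of all genes called by edgeR (18.9% higher and 20.0% lower). At an unadjusted p in edgeR 5 were higher, against 35.5% of all genes, and 0 of these passed the fold limit as well, against 19.2% of all genes. Without a fold limit SRF, ELK1, ELK3 and MEF2A were higher than in control, 4 of 9, where 34.5% of all genes were higher and 35.7% lower on this rule, 70.2% in all. Scaling by library totals alone put 8 of 9, all but MYOCD, higher on this rule and 0 lower, against 48.8% and 23.0% of all genes. The groups did not overlap in 6 of the 9, each with bFGF above, against 73.7% of all genes (36.4% above and 37.3% below). The comparisons share libraries, so they are not independent of each other.

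**Figure D1:**
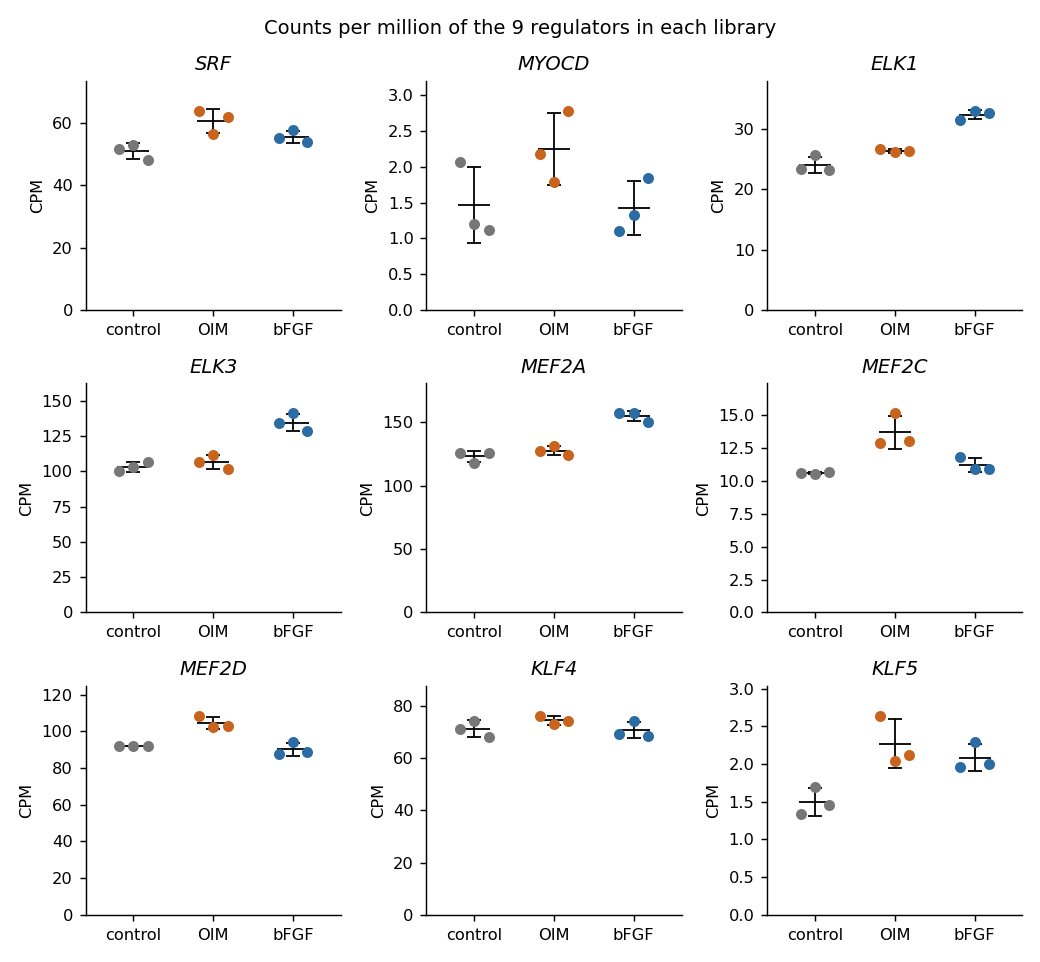
CPM on TMM-scaled totals (vertical axis, from 0) of the 9 regulators in the 3 control, 3 OIM and 3 bFGF libraries. Points are libraries in the order of their replicate numbers, and bars show the mean and SD. ELK1, ELK3 and MEF2A stand highest in bFGF, and SRF, MYOCD, MEF2C, MEF2D, KLF4 and KLF5 have their highest means in OIM.

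SRF (chr7:38213300-38223686, plus strand) had 51.7, 52.9 and 47.9 CPM in the control libraries, 63.8, 56.3 and 61.8 CPM in OIM, and 55.2, 57.6 and 53.7 CPM in bFGF. All OIM libraries were above all control libraries, and the bFGF libraries lay between, overlapping with OIM only through OIM replicate 2. In OIM the SRF level was 1.19-fold that of control, a log2 fold change of 0.25 (standard error, SE, 0.054, adjusted p = 0.0032 in edgeR). In bFGF against OIM its log2 fold change was -0.13 (SE 0.054, adjusted p = 0.047), with a 95% interval from -0.24 to -0.01. This p was 0.055 in DESeq2 and 0.054 with a replicate block, it ranged up to 0.20 with 1 library left out (without OIM replicate 1), and with library totals alone the log2 fold change turned to 0.10. The interval holds only for TMM scaling and for the spread between these libraries, and its lower end lies within the fold limit. Against control, SRF in bFGF had a log2 fold change of 0.13 (SE 0.055, adjusted p = 0.045 in edgeR), which did not pass with a replicate block.

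MYOCD, the cofactor that is itself restricted to cardiac and smooth muscle lineages, lies at chr12:56931628-57029258 on the plus strand. It had 2.07, 1.20 and 1.12 CPM in control, 2.18, 1.80 and 2.78 CPM in OIM, and 1.10, 1.33 and 1.85 CPM in bFGF. The ranges of the groups overlapped in every comparison. Its log2 fold change was 0.62 in OIM against control (SE 0.28, adjusted p = 0.16) and -0.66 in bFGF against OIM (SE 0.28, adjusted p = 0.043), where it passed both thresholds. The call was lost when OIM replicate 1, OIM replicate 3, bFGF replicate 1 or bFGF replicate 2 was left out (log2 fold changes of -0.68, -0.48, -0.50 and -0.61), with libraries thinned to equal depth (-0.61) and with library totals alone (-0.44). Without control replicate 1, the highest control library, MYOCD was called higher in OIM, with a log2 fold change of 0.95 (adjusted p = 0.048). In bFGF against control the log2 fold change was -0.04 with a wide interval, from -0.63 to 0.56, so a difference of the size of the fold limit could not be told from 0, and with library totals alone it was 0.19. The named genes with the pattern most like MYOCD were KLHL34, SUSD1 and ABHD10. Their centred log2 CPM differed from that of MYOCD by a root mean square of 0.20, 0.25 and 0.26 over the 9 libraries, against a median of 0.51 over all genes.

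ELK1 (chrX:42157980-42174964, minus strand) had 23.3, 25.7 and 23.2 CPM in control, 26.7, 26.1 and 26.3 CPM in OIM, and 31.5, 33.0 and 32.7 CPM in bFGF. Each group lay wholly above the one before it. ELK1 was higher in bFGF than in OIM by 0.30 on the log2 scale (SE 0.060, adjusted p = 0.00021 in edgeR), and higher than in control by 0.43 (SE 0.060, adjusted p = 2.8e-06). ELK3 (chr5:87285237-87355201, minus strand), which can repress in the absence of ERK signalling, had 99.9, 102.8 and 106.5 CPM in control, 106.3, 111.4 and 101.9 CPM in OIM, and 133.8, 140.9 and 128.4 CPM in bFGF. The bFGF libraries stood apart while control and OIM overlapped. The log2 fold change of ELK3 was 0.34 against OIM (SE 0.045, adjusted p = 1.5e-06) and 0.38 against control (SE 0.045, adjusted p = 2.2e-07). Both ternary complex factors thus differed by 1.23- to 1.35-fold, less than the fold limit. Scaling by library totals alone made both called higher in bFGF, at 0.52 and 0.56 against OIM and 0.65 and 0.61 against control.

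The 3 MEF2 genes did not share a pattern. MEF2A (chr1:138398270-138508639, plus strand) had 125.4, 118.1 and 125.6 CPM in control, 127.6, 131.0 and 124.0 CPM in OIM, and 157.0, 157.0 and 150.4 CPM in bFGF, which stood above the others. MEF2A was higher in bFGF than in OIM by 0.28 (SE 0.039, adjusted p = 3.1e-06 in edgeR) and than in control by 0.33 (SE 0.040, adjusted p = 3.0e-07), and with library totals alone it was called in both, at 0.50 and 0.56. MEF2C (chr2:96122407-96296927, minus strand) had 10.6, 10.6 and 10.7 CPM in control, 12.9, 15.1 and 13.0 CPM in OIM, and 11.8, 10.9 and 10.9 CPM in bFGF. Here the OIM libraries were the highest, and OIM replicate 2 was the highest of them.

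MEF2C was higher in OIM than in control by 0.37 (SE 0.088, adjusted p = 0.0072) and lower in bFGF than in OIM, with a log2 fold change of -0.29 (SE 0.088, adjusted p = 0.0062). Without OIM replicate 2 these were 0.29 (adjusted p = 0.041) and -0.20 (adjusted p = 0.077). Against control, MEF2C in bFGF was at 0.075 with TMM scaling (adjusted p = 0.47 in edgeR). With library totals alone, MEF2C was at -0.07 in bFGF against OIM (adjusted p = 0.49) and at 0.30 against control (adjusted p = 0.0071). MEF2D (chr4:93581563-93616980, plus strand) had 91.9, 92.0 and 91.7 CPM in control, 108.4, 102.4 and 102.8 CPM in OIM, and 87.5, 94.3 and 88.7 CPM in bFGF. Its OIM libraries were above all others, by 0.19 against control (SE 0.041, adjusted p = 0.0041). In bFGF against OIM the log2 fold change was -0.21 (SE 0.041, adjusted p = 0.00013), and with library totals alone it was 0.0084. MEF2D in bFGF against control was at -0.03 (adjusted p = 0.57), and with library totals alone at 0.20 (adjusted p = 0.00026). Of the 3 MEF2 genes, MEF2A alone passed the adjusted p as higher in bFGF with TMM scaling.

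KLF4 (chr1:248604817-248609574, minus strand) had 71.3, 74.4 and 68.0 CPM in control, 76.2, 72.9 and 74.4 CPM in OIM, and 69.4, 74.3 and 68.5 CPM in bFGF. The groups overlapped throughout. Its log2 fold change was 0.06 in OIM against control (adjusted p = 0.42), -0.07 in bFGF against OIM (adjusted p = 0.16) and -0.01 in bFGF against control (adjusted p = 0.85), and the 95% interval of the last ran from -0.11 to 0.09. With library totals alone the comparisons with bFGF turned positive, at 0.15 and 0.21. KLF5 (chr11:45370009-45386673, plus strand) was near the low end, with 1.34, 1.70 and 1.46 CPM in control, 2.64, 2.04 and 2.12 CPM in OIM, and 1.96, 2.29 and 2.00 CPM in bFGF. The OIM and bFGF libraries were all above the controls and overlapped with each other. The log2 fold change of KLF5 was 0.59 in OIM against control (SE 0.21, adjusted p = 0.070), above the fold limit, and DESeq2 gave it an adjusted p of 0.046. In bFGF against control it was 0.47 (SE 0.21, adjusted p = 0.054) and was called when libraries were thinned to equal depth (0.54), with library totals alone (0.70) and without control replicate 2 (0.57). In bFGF against OIM KLF5 was at -0.12 (adjusted p = 0.62), and with library totals alone at 0.10.

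**Figure D2:**
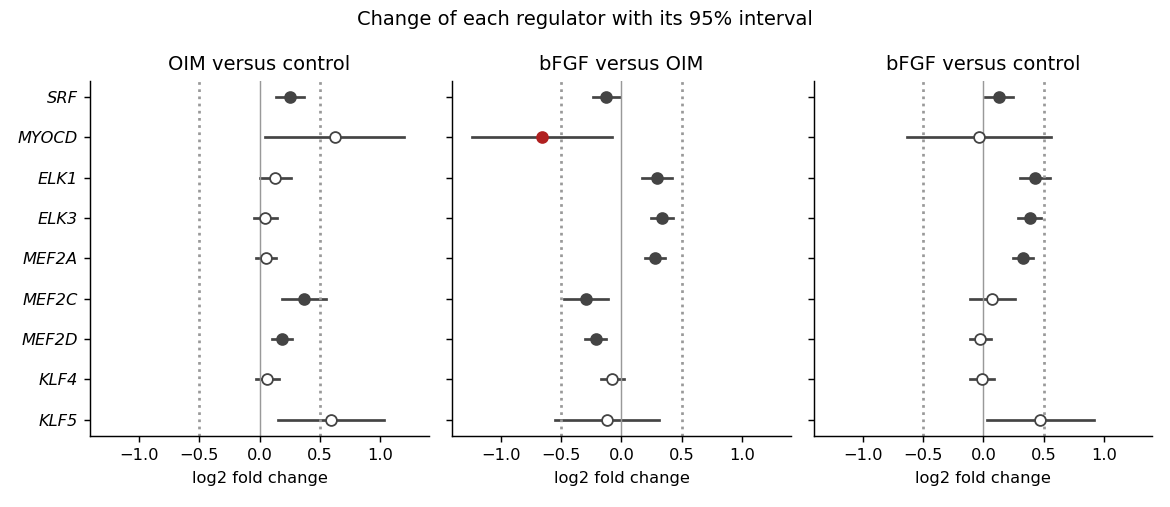
Log2 fold change (horizontal axis) of each regulator in the 3 comparisons, with its 95% interval, on TMM scaling. Dotted lines mark the fold limit of 0.5 either way, filled points passed an adjusted p of 0.05, and the red point (MYOCD, -0.66) passed both thresholds. Intervals are wide for MYOCD and KLF5, the genes with the fewest counts.

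Among themselves, the regulators lay closest in 2 sets, which were picked out after their values were seen. The centred log2 CPM of MEF2A and ELK3 differed by a root mean square of 0.046 over the 9 libraries, that of ELK1 and ELK3 by 0.074 and that of MEF2A and ELK1 by 0.083. MEF2D and KLF4 differed by 0.070, SRF and MEF2D by 0.080, and SRF and KLF4 by 0.086. Values between the sets were larger, for example 0.21 for SRF and ELK3. The points share the 3 groups and their scaling, so this is a description without a test.

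The other genes of the pathway were taken from 6 lists with 76 genes, of which 72 were tested, and 5 of these lists are described singly. Between OIM and control, 3 of the 72 were called (4.17%, against 2.35% of all genes), each of them a contractile gene that was higher in OIM. They were MYH11, the smooth muscle myosin heavy chain, at 129 ± 3.32 CPM in control against 281 ± 86.2 in OIM (SD, n = 3), ACTG2, an enteric actin whose reads near-identical actins can share, at 31.6 ± 1.98 against 57.8 ± 16.4 CPM, and DES, the muscle intermediate filament desmin, at 0.398 ± 0.192 against 4.06 ± 1.75 CPM. In all 3 OIM replicate 2 had the lowest value of its group. Between bFGF and OIM, 42 of the 72 were called (58.3%, against 36.2% of all genes), with 33 lower and 9 higher in bFGF. In bFGF against control 31 were lower and 9 higher (55.6%, against 39.0% of all genes).

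All 16 contractile genes were called lower in bFGF than in OIM, against 18.4% of all genes, and than in control, against 20.0%. By adjusted p with library totals alone, 21.7% and 23.0% of all genes were lower, while all 16 contractile genes were still called lower. Their log2 fold changes against OIM had a median of -2.09, and the smallest in size was 1.14, for the adhesion protein vinculin (VCL, named as the smallest), while the largest among the regulators was 0.66. MYH11 fell to 5.63 ± 0.710 CPM, a log2 fold change of -5.64 (SE 0.19, adjusted p = 8.8e-16). ACTG2 had 1.27 ± 0.249 CPM in bFGF, a log2 fold change of -5.50. ACTA2, smooth muscle actin, was at 738 ± 52.8 CPM in bFGF against 8449 ± 1384 in OIM (SD, n = 3), or -3.52 on the log2 scale (SE 0.084, adjusted p = 9.9e-18). DES had 1, 4 and 4 counts in the bFGF libraries against 133 to 298 counts in OIM, too few for a stable fold. Fewer contractile cells and less RNA per cell cannot be told apart in bulk libraries.

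Of the other SRF cofactors 10 of 11 were tested, and in bFGF against OIM 6 fell and 2 rose, which is 80.0% of the list against 36.2% of all genes. The LIM proteins CSRP2 and CSRP1, which bridge SRF and GATA factors, fell from 50.4 ± 4.46 to 14.9 ± 0.704 CPM and from 420 ± 36.4 to 142 ± 3.05 CPM (SD, n = 3), at -1.75 and -1.57 on the log2 scale. The homeobox gene PRRX1 had a log2 fold change of -0.86. FHL2, a LIM-only protein that binds SRF, rose from 215 ± 9.35 to 507 ± 14.6 CPM, a log2 fold change of 1.24 (SE 0.038, adjusted p = 3.3e-16).

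The actin-regulated cofactors MRTFA and MRTFB fall outside the rule for naming genes and were chosen after their values were seen. MRTFA had 64.9, 64.7 and 63.0 CPM in control, 78.8, 64.8 and 72.9 CPM in OIM, and 45.2, 45.9 and 47.2 CPM in bFGF. MRTFB had 54.2, 54.0 and 57.8 CPM in control, 71.5, 61.7 and 66.3 CPM in OIM, and 39.4, 35.9 and 35.7 CPM in bFGF. In both genes the bFGF libraries lay under all others, with log2 fold changes against OIM of -0.65 for MRTFA (SE 0.057, adjusted p = 4.1e-09) and -0.85 for MRTFB (SE 0.058, adjusted p = 8.0e-11). Against control MRTFB was called lower and MRTFA, at -0.48, was not. That call of MRTFB was lost with library totals alone (-0.36), which left 3 cofactors called lower than in control in place of 5. With library totals alone 4 cofactors were called lower than in OIM in place of 6, and MRTFA (-0.42) was among those lost, while MRTFB (-0.62) was called. ELK4, also a ternary complex factor, was likewise outside the rule and not called, with a log2 fold change of 0.15 (adjusted p = 0.0013).

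Among 12 MEF2 partners and inputs 1 rose and 2 fell in bFGF against OIM, which is 25.0% of the list against 36.2% of all genes. MAPK7, which encodes the MEF2-activating kinase ERK5, rose from 83.9 to 218 CPM, a log2 fold change of 1.38 (SE 0.051, adjusted p = 5.1e-15). The class IIa deacetylases HDAC9 and HDAC5 were at -0.71 and -0.52 on the log2 scale. Scaling by library totals alone gave -0.48 and -0.30, and the list then had 3 genes called higher and 0 lower. In bFGF against control, HDAC5 (-0.503) and MEF2B were called lower and HDAC9 was not. There, library totals alone put HDAC5 at -0.28, not called, and the list had 3 genes called higher and 1 lower. MEF2B was at a low level, 0.774 CPM in bFGF and 1.64 CPM in control.

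In the KLF family, 3 of 11 further genes fell in bFGF against OIM, which is 27.3% of the list against 36.2% of all genes, and the median of the list was -0.10. KLF15 had a log2 fold change of -2.12, KLF7 of -1.30 and KLF6 of -0.69. KLF7 was at 126 ± 2.24 CPM in bFGF against 309 ± 27.8 in OIM (SD, n = 3). With library totals alone 1 gene of this list was called higher and 2 lower, and the median was 0.12. The gene called higher was KLF2 (0.62), which with TMM scaling was called higher in bFGF against control, with a log2 fold change of 0.55, and not against OIM.

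Of the immediate early genes, 9 were tested, and 3 rose and 2 fell in bFGF against OIM, which is 55.6% of the list against 36.2% of all genes. EGR2 and EGR1, zinc finger factors and textbook targets of ternary complexes, rose by 2.03 and 1.48 on the log2 scale, and IER2 by 0.88. FOSB (log2 fold change of -2.55) and CCN1, a matricellular protein that MRTF and YAP also control (-2.35), fell. The median of the 9 was -0.25, with 6 negative and 3 positive. By adjusted p alone 3 were higher and 4 lower, against 33.8% and 33.5% of all genes. FOS, outside the rule for naming genes, was not called, at 9.43 CPM in OIM and 7.84 CPM in bFGF. The counts of calls were the same in bFGF against control, 3 higher and 2 lower, against 39.0% of all genes.

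**Figure D3:**
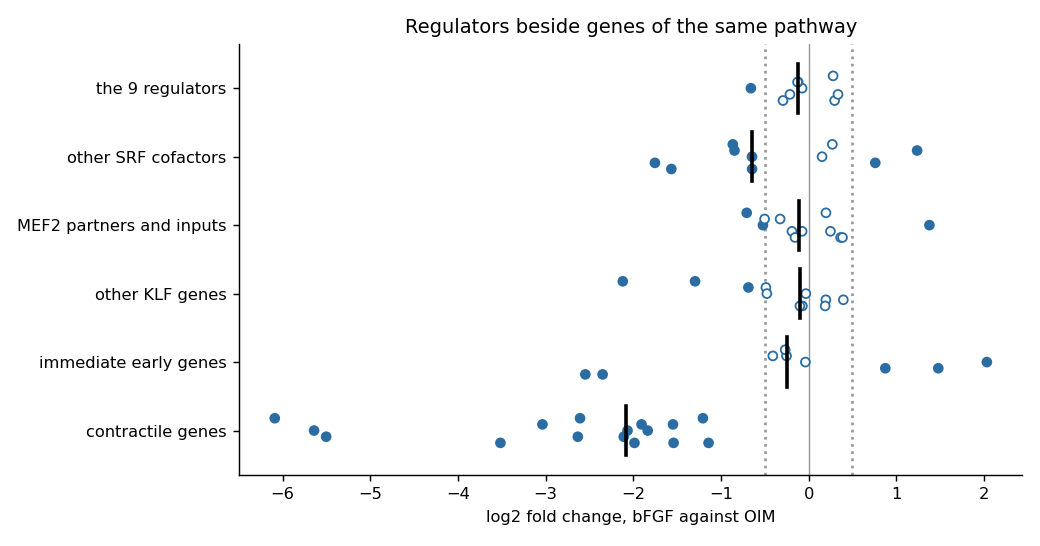
Log2 fold change in bFGF against OIM (horizontal axis, TMM scaling) of the 9 regulators and of the tested genes of 5 pathway lists. Points are genes, filled where called, black bars are list medians, and dotted lines mark the fold limit. The regulators lie between -0.66 and 0.34, while all 16 contractile genes lie at -1.14 or lower.

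The search for CArG boxes was extended to the same window of the cofactors and of both target lists. Boxes were present in 3 of 16 contractile genes (TAGLN, MYL9 and VCL), in 1 of 11 further cofactors (FHL2) and in 1 of 10 immediate early genes (IER2), against 1.55% of all windows. TAGLN, MYL9 and IER2 are named for their boxes. These sequences are shown, with the box in capitals, because they belong to genes that moved in opposite directions in bFGF. The TAGLN windows lie at chr9:44561555-44561584 and chr9:44561682-44561711, MYL9 at chr17:39788085-39788114, VCL at chr14:76699927-76699956 and FHL2 at chr3:49389881-49389910, all on the plus strand, and IER2 lies on the minus strand at chr2:65912681-65912710.
TAGLN, distal box: gtcctcctgtCCATAAAAGGcttttcccgg
TAGLN, proximal box: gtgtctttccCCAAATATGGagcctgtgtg
MYL9: tgggtcgaagCCAAATAAGGccgggctgct
VCL: cccaccatgcCCTTATAAGGagcgcccggc
FHL2: aatttgcataCCTTAAAAGGcttgcaagag
IER2: gggttcctgtCCTTATATGGgcagccggaa
The contractile genes with a box had log2 fold changes of -1.84 (TAGLN), -1.91 (MYL9) and -1.14 (VCL) in bFGF against OIM, and FHL2 and IER2 had 1.24 and 0.88. SRF, with 2 boxes, had -0.13. Boxes farther from the start or with other letters were not searched for.

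**Figure D4:**
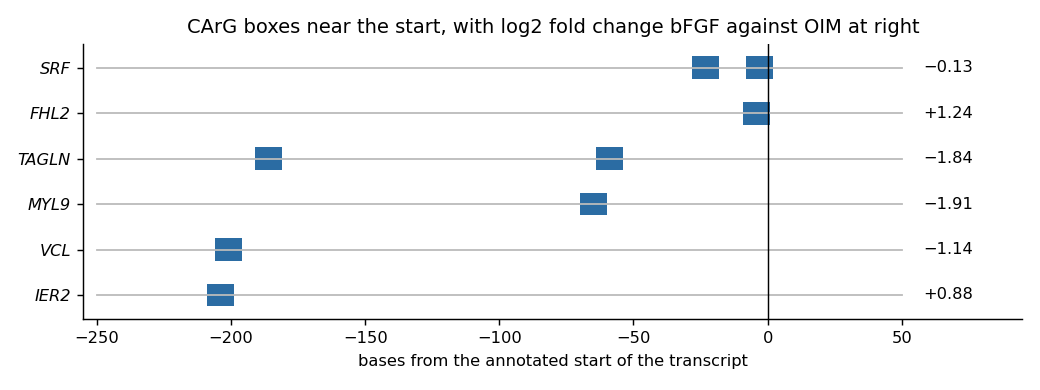
Position of CArG boxes (blue, drawn to their length of 10 bases) relative to the annotated start of the transcript (horizontal axis, in bases, vertical line at 0) in the 6 genes that had one. Numbers at the right are log2 fold changes in bFGF against OIM, which are negative for SRF, TAGLN, MYL9 and VCL and positive for FHL2 and IER2.

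Markers of other cell types were measured beside these results, because KLF4, MEF2C and ELK3 are also expressed in endothelium. Of 7 endothelial markers 5 were called higher in bFGF than in OIM, against 17.7% of all genes, and none of the 7 was without counts in any group. Their summed level was 72.5 to 74.4 CPM in control, 86.8 to 87.8 CPM in OIM and 166 to 177 CPM in bFGF, most of it from ERG, itself an ETS factor (137 CPM in bFGF). PECAM1 was at 20.7 ± 1.07 CPM in bFGF against 11.8 ± 1.06 in OIM (SD, n = 3), and VWF at 0.228 against 0.303 CPM. The summed macrophage markers were 12.8 to 16.2 CPM in control, 14.1 to 15.6 CPM in OIM and 8.3 to 9.0 CPM in bFGF, most of it from CD14, the only one called in this comparison with OIM (7.68 CPM in bFGF and 13.5 CPM in OIM). The part of other cells in the values of the 9 regulators was not tested. No annotated gene overlapped an exon of a member, since the only overlapping genes, a long non-coding RNA within MYOCD and another that lies mostly outside MEF2C and reaches into one end of it, run on the opposite strand with 0 shared exon bases.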

How the data were processed

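RNA of PVICs was sequenced in 3 libraries per group, grouped and numbered as in the labels. The authors deposited estimated counts that were not normalized. The rows of the 19535 genes and 6179 circRNAs hold whole numbers, and those of 9888 non-coding transcripts often do not. The paper's methods name Cutadapt and STAR, whereas the submitters' processing notes name Trimmomatic, HISAT2, StringTie and Sscrofa11.1. The methods also name a poly-A kit, and the labels a kit that depletes ribosomal RNA, and the treatment times given differ, so that of the labels is used. The counting program and its use of strand are not given in the sources used here. The table has 19 unnamed empty columns, which were not used, and 25 rows whose symbols had become dates.

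Genes were kept with filterByExpr, scaled by TMM and fitted with edgeR 4.0.16 (quasi-likelihood test) in R 4.3.3 in 1 model with the 3 groups, with Benjamini-Hochberg adjustment over 13662 genes. Genes were called at an adjusted p of 0.05 or less with a log2 fold change of 0.5 or more in size. Standard errors are log2 fold changes over the square root of F, and 95% intervals use 6 residual and 13 prior degrees of freedom. The test was checked on simulated counts. DESeq2 1.42.0 was an alternative. Lengths, positions and sequences come from RefSeq on Sscrofa11.1, the build in the processing notes. Named genes are the 9 members, up to 4 called genes per list and comparison averaging 10 or more counts in the higher group, and the 3 named genes most like each called member by root mean square of centred log2 CPM (prior count of 2). Members and lists were chosen with earlier results of these data known. Same-numbered libraries did not deviate together (r from -0.032 to 0.0035 across genes, for 9 pairs). Of the listed genes, NR4A1 and MYH6 were not analysed here. The other list counted among the pathway genes is not reported singly here.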

Additional observations from a re-analysis of the deposited data

Results flagged for a closer look

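A signal outside the gene counts was seen at 1 member. A circRNA (circRNA_0338) with both ends at exon edges of MEF2A, at chr1:138468428-138486301 on the plus strand, had 3 junction counts in bFGF replicate 3 and 0 in each of the other 8 libraries, the controls included. A count of 0 in a library allows up to 3, so these libraries cannot be told apart.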

How the results depend on the processing

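In OIM against control, 0 members were called higher, 1 with DESeq2 and 3 without a fold limit. In bFGF against OIM, 0 were called higher and 1 lower. This became 3 higher and 0 lower with library totals alone, 0 lower with thinned libraries, 3 higher and 4 lower without a fold limit, and 0 lower with a fold limit of 1. In bFGF against control, 0 were called higher, 4 with library totals alone, 1 with thinned libraries and 4 without a fold limit. With library totals alone, 68.8% of all genes called against OIM and 68.1% of those called against control were higher in bFGF. With TMM these shares were 49.0% and 48.5%. The shares of all genes called with DESeq2, thinned libraries or a limit of 1 are not given here. These counts are therefore not read as results about the members. Leaving out 1 library gave 0 to 1 members higher in OIM, 0 to 1 lower in bFGF than in OIM and 0 to 1 higher in bFGF than in control. Of the pathway genes, 3 higher and 0 lower became 17 and 3 without a fold limit in OIM against control. The 9 called higher in bFGF became 19 without a fold limit and 5 with a limit of 1, both against OIM and against control. The causes were not tested, but fold limits act by construction.

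Library totals alone reversed the sign in bFGF against OIM for SRF (0.10), MEF2D (0.0084), KLF4 (0.15) and KLF5 (0.10), and in bFGF against control for MYOCD (0.19), MEF2D (0.20) and KLF4 (0.21). KLF5 in bFGF against OIM, at -0.12, was 0.00056 without OIM replicate 1 and -0.19 at the other end of the fits without 1 library. MYOCD in bFGF against control, at -0.04, ranged from -0.27 to 0.29 in those fits (0.29 without control replicate 1, 0.12 without bFGF replicate 1 and 0.0098 without bFGF replicate 2). KLF4 in the same comparison, at -0.01, was 0.0046 in a fit on the 2 groups alone and ranged from -0.048 to 0.021 with 1 library left out (0.021 without control replicate 2, 0.0091 without OIM replicate 2, 0.0022 without bFGF replicate 1 and 0.012 without bFGF replicate 3). Without division by length, MEF2D ranked 3 and KLF4 ranked 4 in control, in place of 4 and 3.

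With a replicate block, 1 member was called lower in bFGF than in OIM, as before, and 33 pathway genes, so no count of calls changed. SRF alone lost its adjusted p in both bFGF comparisons (0.054 and 0.051). Same-numbered libraries did not deviate together across all genes, but the sources do not say whether a shared number marks a shared origin. The members with the fewest counts were MYOCD and KLF5, at 59 to 159 and 73 to 143 per library, and the levels of MYOCD varied by 22.1% to 35.9% (CV) within groups.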

Other observations

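Opposite-strand non-coding RNAs that overlap 2 of the genes had estimated counts, summed over their listed transcripts and not scaled for depth. LOC110256112, within MYOCD, had 25.2, 26.3 and 19.1 in control, 31.3, 15.1 and 18.2 in OIM, and 8.96, 3.99 and 13.9 in bFGF. LOC102159394 (chr2:96281234-96616438), which overlaps one end of MEF2C and lies mostly outside it, had 0.0245, 15.4 and 25.9 in control, 17.1, 2.84 and 11.6 in OIM, and 31.5, 12.9 and 27.5 in bFGF. The values are small and were not tested, and the bFGF libraries had the lowest total counts, so no order of the groups is read from them.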
